A study of Cenococcum geophilum 1.58 with 6 samples.

Results

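A set of 25 genes of the ectomycorrhizal fungus Cenococcum geophilum stood far higher in poplar ectomycorrhizal (ECM) root tips than in mycelium kept in pure culture (free-living mycelium, FLM), where all 25 were already expressed. The genes were chosen on TPM, a transcript level scaled for gene length that sums to 1000000 in each library. A gene was taken when its TPM was at least 10 in each of the 3 FLM libraries and its lowest TPM among the 3 poplar ECM libraries was at least 4 times its highest TPM in FLM. Of 14748 genes 35 passed both limits. The 9 of them that the study lists among its regulated secreted proteins were left out, as was Cenge3:687038, which the rule names, so that 25 remained. Another 9508 genes had 10 TPM or more in each FLM library and were not in the set, and they serve as the comparison below. Because the difference between poplar ECM and FLM chose the genes, the differences between these groups are given as a description and not as a test.

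In an ectomycorrhiza the fungus sheaths a short root with a mantle of hyphae and grows between the outer root cells as the Hartig net, where the fungus passes mineral nutrients to the plant and receives sugars. An ECM transcriptome holds fungal genes that are close to silent in free mycelium. It also holds genes that free mycelium already uses and that stand higher in ECM, and the set belongs to this second kind by its rule. C. geophilum forms black ECM with a wide range of trees and also survives in soil as free mycelium and as sclerotia.

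The study asked how this fungus changes its gene expression, above all that of secreted proteins, between life with and without a host. Poplar ECM root tips came from in vitro syntheses in which plants of the Populus tremula x alba INRA clone 717-1B4 were set, 2 to a dish, on mycelium of C. geophilum isolate 1.58 that had grown for 20 days at 25 °C on cellophane over an MNM medium low in phosphorus and nitrogen. The dishes were then kept for 60 days at 25 °C with 16 h of light per day. FLM was the same isolate in pure culture under identical conditions and for the same 60 days. Both groups have 3 libraries that the labels call biological replicates. A single fungal isolate and a single poplar clone were used, so the values hold for this pair. The root tips hold plant and fungal cells, but the tables hold fungal genes only, so the tissue label could not be set against plant markers. Whether plant reads from these root tips were counted on fungal genes was not tested. In such bulk samples more cells of a type and more RNA per cell cannot be told apart.

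The libraries differed in depth and composition. Total counts on fungal genes were between 11197509 and 14396613 in poplar ECM, against between 52305281 and 54586073 in FLM. Poplar ECM replicates 2 and 3 were run on a HiSeq-2500, and poplar ECM replicate 1 and all FLM libraries on a HiSeq-2000. The smallest count of any gene of the set in any library was 121 in poplar ECM and 88 in FLM. A set of 22 core eukaryotic genes had a median log2 fold change of 0.05 after TMM normalization of the counts (a scaling that gives extreme genes little weight), with 1 of the 22 called higher in poplar ECM. Normalized counts below are counts per 1000000 after this scaling. In TPM the same 22 genes had a median log2 ratio of -0.71 and all genes tested one of -0.76, so that a gene with unchanged normalized counts stands lower in TPM in poplar ECM.

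All 25 genes were called higher in poplar ECM by edgeR's quasi-likelihood test on the counts (log2 fold change above 1, Benjamini-Hochberg adjusted p under 0.05 over 12692 genes), where 9.94% of all genes tested and 7.11% of the genes with 10 TPM or more in each FLM library were called higher, and 3.28% of all genes tested lower. The rule used this contrast, so nothing is read from the count. Their log2 fold changes were between 3.26 and 7.20, with a median of 4.21, against a median of 0.01 over all genes tested. They ranked between 22 and 207 among all tested genes by log2 fold change. In TPM the lowest poplar ECM library stood between 4.05 and 42.3 times above the highest FLM library, with a median of 5.88. In normalized counts the same ratio ran from 5.36 to 53.0, with a median of 10.1. All genes of the set thus had groups that did not overlap on either scale, which in normalized counts 22.2% of the genes tested also had, with poplar ECM above FLM.

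**Figure D1:**
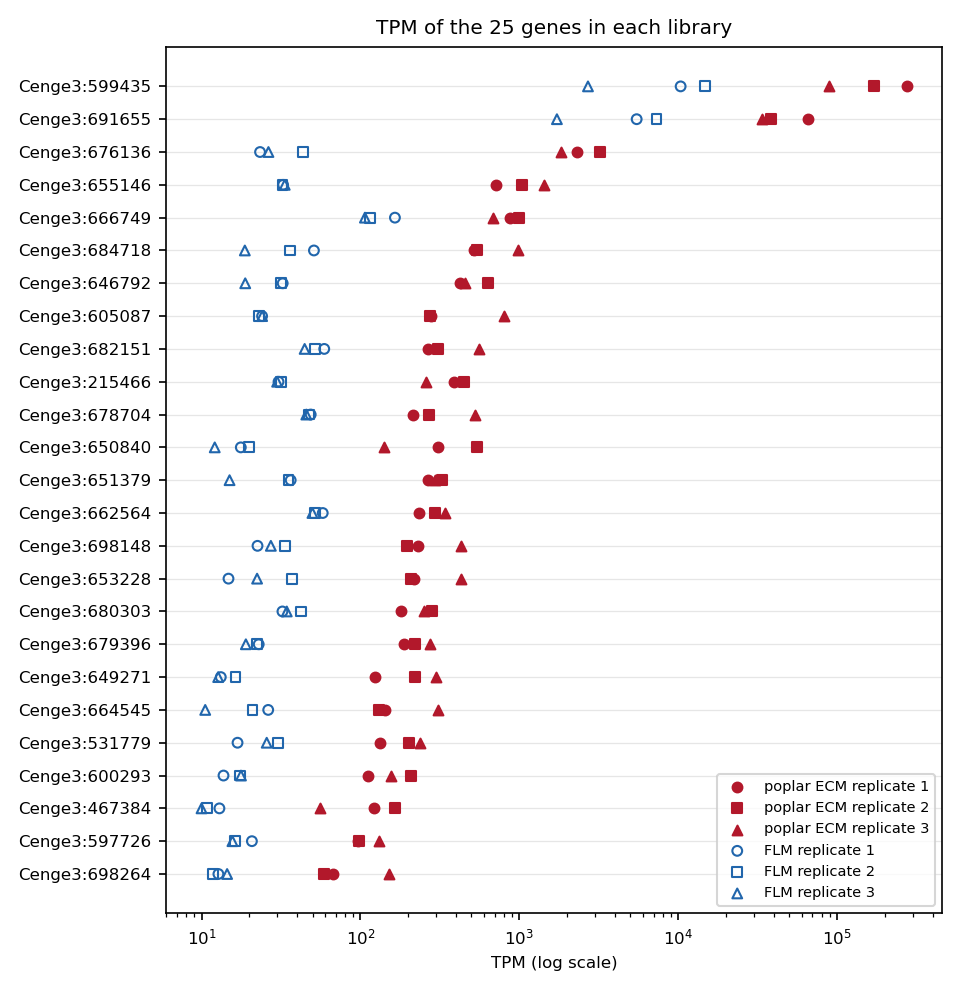
TPM (log scale) of each of the 25 genes in the 3 poplar ECM libraries (filled red) and the 3 FLM libraries (open blue), with the marker shape giving the replicate number and genes ordered by mean TPM in poplar ECM. In every gene the poplar ECM libraries lie to the right of the FLM libraries, and Cenge3:599435 and Cenge3:691655 lie far to the right of the other 23 genes in both groups.

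The set fell into 2 very abundant IDs and 23 genes of ordinary level. The 23 had 55.3 to 3223 TPM in single poplar ECM libraries and 10 to 165 TPM in single FLM libraries. All 23 are genes of the RefSeq annotation of assembly version 2.0, and Cenge3:599435 and Cenge3:691655 are not among its genes, as holds for 64 of the 14748 IDs in all. None of the 25 has a product name in the tables used here, so no function is given to any of them.

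Cenge3:599435 had the highest TPM of all genes in each of the 3 poplar ECM libraries. Its TPM was 274421, 171640 and 88563 in poplar ECM replicates 1, 2 and 3, against 10361, 14821 and 2705 in FLM replicates 1, 2 and 3. FLM replicate 3 stood far below the other FLM libraries and poplar ECM replicate 1 above the other poplar ECM libraries, and the groups did not overlap. The fitted log2 fold change was 5.25 with a standard error (SE) of 0.82, the largest SE in the set. The length behind the deposited values is 199 bp, the shortest in the set.

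Cenge3:691655 ranked second in each poplar ECM library, with 65139, 38599 and 33624 TPM in replicates 1, 2 and 3, against 5478, 7313 and 1725 TPM in FLM replicates 1, 2 and 3. FLM replicate 3 was again the low one, and again there was no overlap. Its log2 fold change was 4.18 (SE 0.67) and its length 793 bp.

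Both IDs moved together with Cenge3:93593, a further ID that is not among the annotated genes and that was left out of the set as a listed secreted protein. Cenge3:93593 had 44066, 26249 and 21619 TPM in poplar ECM replicates 1, 2 and 3, against 3394, 4446 and 1145 TPM in FLM. The TPM of Cenge3:691655 was 1.48, 1.47 and 1.56 times that of Cenge3:93593 in the poplar ECM libraries, and 1.61, 1.64 and 1.51 times in the FLM libraries. That ratio was nearly fixed while both levels differed many-fold between libraries. The ratio of Cenge3:599435 to Cenge3:691655 was less even, at 4.21, 4.45 and 2.63 in poplar ECM replicates 1, 2 and 3 and 1.89, 2.03 and 1.57 in FLM. Whether the 3 IDs share sequence or reads was not tested.

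Cenge3:599435 and Cenge3:691655 together took 34.0%, 21.0% and 12.2% of all TPM in poplar ECM replicates 1, 2 and 3, against 1.58%, 2.21% and 0.443% in FLM replicates 1, 2 and 3. With Cenge3:93593 the share was 38.4%, 23.6% and 14.4% in poplar ECM, against 1.92%, 2.66% and 0.557% in FLM. Since TPM sums to a fixed total, these shares press down the TPM of every other gene in the poplar ECM libraries, and most in replicate 1. The median TPM of all genes was 11.6, 12.6 and 20.7 in poplar ECM replicates 1, 2 and 3, against 25.3, 24.4 and 24.5 in FLM. Rescaled without the 3 IDs it was 18.8, 16.5 and 24.1 in poplar ECM, against 25.8, 25.1 and 24.6 in FLM. The rule was harder to pass in TPM, where it took 25 genes, than in TPM rescaled without the 3 IDs (45 genes) or in normalized counts (66 genes). What lay behind the gap between the last 2 was not tested.

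**Figure D2:**
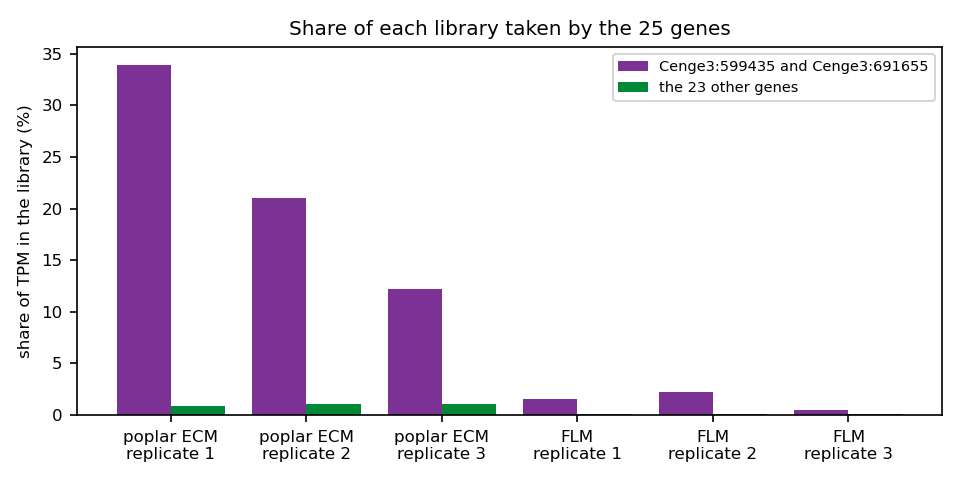
Share of the TPM of each library (percent) taken by Cenge3:599435 and Cenge3:691655 together (purple) and by the 23 other genes of the set together (green), poplar ECM libraries on the left and FLM libraries on the right. The purple bars stand at 34.0%, 21.0% and 12.2% in poplar ECM and at 2.21% or less in FLM, while the green bars reach 1.10% in poplar ECM and 0.0788% in FLM.

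The 23 other genes took an even share of the poplar ECM libraries. Their summed TPM was 0.841%, 1.09% and 1.10% of the total in poplar ECM replicates 1, 2 and 3, against 0.0788%, 0.0778% and 0.0635% in FLM replicates 1, 2 and 3. In normalized counts the sums were 12121, 12604 and 11013 in poplar ECM, against 567, 593 and 497 in FLM. The highest and the lowest poplar ECM sum thus lay close together although single genes spread more widely. Ordered by TPM in each library, the median rank of the 23 was 366, 424 and 402 in poplar ECM, against 7555, 6389 and 7675 in FLM. Genes from the middle of the FLM order thus stood in the top part of the poplar ECM order. The rule chose them on the same TPM, so this rise in rank follows from the choice.

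Cenge3:676136 had the largest difference of the set. Its TPM was 2318, 3223 and 1833 in poplar ECM replicates 1, 2 and 3, against 23.4, 43.3 and 26.4 in FLM replicates 1, 2 and 3. Replicate 2 was the highest in both groups and the groups lay far apart. The log2 fold change was 7.20 (SE 0.48), and in normalized counts the mean of poplar ECM was 147 times that of FLM. This gene of 512 bp on scaffold 14 was the most abundant of the 23 in each poplar ECM library, whereas in FLM Cenge3:666749 was.

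Cenge3:655146 followed with 709.8, 1046 and 1439 TPM in poplar ECM replicates 1, 2 and 3, against 32.6, 32.4 and 33.4 TPM in FLM. The FLM libraries were nearly equal. The spread of the poplar ECM libraries in TPM mostly went away in normalized counts, where the highest was 1.24 times the lowest. The log2 fold change was 5.78 (SE 0.24).

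Cenge3:650840 had the third largest fold change of the set, with a far wider spread. It stood at 306, 540.25 and 140.2 TPM in poplar ECM replicates 1, 2 and 3, against 17.7, 19.9 and 12.1 TPM in FLM. Replicate 3 was low in both groups, and in normalized counts the highest poplar ECM library was 5.78 times the lowest, the widest spread in the set. Its log2 fold change was 5.26 (SE 0.57).

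Cenge3:646792 had 422, 639.8 and 456 TPM in poplar ECM replicates 1, 2 and 3, against 32.4, 31.7 and 18.8 TPM in FLM. The FLM libraries 1 and 2 were alike and replicate 3 was lower, with a wide gap to the lowest poplar ECM library. This gave a log2 fold change of 5.05 (SE 0.35).

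Cenge3:684718 had 517, 539 and 987 TPM in poplar ECM replicates 1, 2 and 3, against 51.0, 36.1 and 18.7 TPM in FLM. Here poplar ECM replicate 3 was the high library and FLM replicate 3 the low one, so the library with the number 3 was the outermost in both groups. A log2 fold change of 5.03 (SE 0.36) was fitted.

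Cenge3:605087 had 279, 273 and 795 TPM in poplar ECM replicates 1, 2 and 3, against 24.1, 23.1 and 24.1 TPM in FLM. The FLM values were almost equal, and poplar ECM replicate 3 stood well above replicates 1 and 2. The log2 fold change was 4.92 (SE 0.30). This gene is 2636 bp long and lies on scaffold 8, as does Cenge3:655146, with 20 genes and 150606 bp between them.

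Cenge3:215466, Cenge3:649271 and Cenge3:679396 had FLM libraries close together. Cenge3:215466 stood at 387, 448 and 259 TPM in poplar ECM, against 30.5, 31.6 and 29.9 TPM in FLM (log2 fold change 4.48, SE 0.36). Cenge3:649271 stood at 123, 220.0 and 301 TPM in poplar ECM, against 13.2, 16.4 and 12.7 TPM in FLM (log2 fold change 4.67, SE 0.24). In TPM the lowest poplar ECM library was replicate 3 for Cenge3:215466 and replicate 1 for Cenge3:649271. Cenge3:679396, at 187, 222 and 275 TPM in poplar ECM and 22.9, 22.3 and 19.0 TPM in FLM, had the smallest SE of the set (log2 fold change 4.22, SE 0.19).

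Cenge3:666749 was the highest of the 23 in FLM. It had 877, 995.5 and 678 TPM in poplar ECM replicates 1, 2 and 3, against 165, 115 and 107 TPM in FLM replicates 1, 2 and 3. FLM replicate 1 was the high library of its group, and the lowest poplar ECM library stood 4.11 times above it, just inside the limit. The log2 fold change was 3.62 (SE 0.34).

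Cenge3:651379 was 268 to 327 TPM in poplar ECM, against 15.0 to 36.4 TPM in FLM, with FLM replicate 3 far below the other FLM libraries (log2 fold change 4.21, SE 0.36). Its FLM group was among the 6 with the widest spread in the set, which include Cenge3:599435 and Cenge3:691655. In normalized counts the highest FLM library was 2.36 times the lowest for Cenge3:651379, 2.41 times for Cenge3:664545, 2.60 times for Cenge3:653228 and 2.63 times for Cenge3:684718. Cenge3:664545 stood at 130.4 to 308 TPM in poplar ECM, against 10.6 to 26.3 TPM in FLM (log2 fold change 4.06, SE 0.34). Cenge3:653228 stood at 207 to 429 TPM in poplar ECM, against 14.8 to 36.9 TPM in FLM, and here FLM replicate 1 was the low library (log2 fold change 4.26, SE 0.35). No library of either gene overlapped the other group.

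Another 5 genes had log2 fold changes between 3.44 and 4.11. Cenge3:682151 had 267 to 557 TPM in poplar ECM, against 44.6 to 59.2 TPM in FLM (log2 fold change 3.61, SE 0.21). Cenge3:698148 had 197 to 431 TPM in poplar ECM, against 22.5 to 33.5 TPM in FLM (log2 fold change 4.11, SE 0.26). Poplar ECM replicate 3 was the highest library for both. Cenge3:531779 had 132 to 238 TPM in poplar ECM, against 16.9 to 30.4 TPM in FLM (log2 fold change 3.75, SE 0.26). Cenge3:600293 had 111 to 209 TPM in poplar ECM, against 13.8 to 17.7 TPM in FLM (log2 fold change 4.11, SE 0.28). Cenge3:597726 had 96.7 to 131 TPM in poplar ECM, against 15.7 to 20.8 TPM in FLM (log2 fold change 3.44, SE 0.20), with FLM replicate 1 the highest of its group.

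Cenge3:467384 was the gene closest to the floor in FLM. It had 122, 166 and 55.3 TPM in poplar ECM replicates 1, 2 and 3, against 13.0, 10.9 and 10 TPM in FLM. At 248 bp it is the shortest of the 23, so these levels rest on 489, 589 and 121 counts in poplar ECM and on 121, 105 and 88 counts in FLM. Poplar ECM replicate 3 was far below the other poplar ECM libraries and still above every FLM library. Its fitted log2 fold change was 4.29 (SE 0.48).

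The limit of 4 cut through a continuous range. Just inside it were Cenge3:662564 at 4.05, Cenge3:698264 at 4.08, Cenge3:666749 at 4.11, and Cenge3:680303 and Cenge3:467384 at 4.26 each, as the lowest poplar ECM TPM over the highest FLM TPM. Cenge3:698264 was also the lowest of the 25 in poplar ECM on average, with 59.2 to 152 TPM there against 11.8 to 14.5 TPM in FLM (log2 fold change 3.55, SE 0.23). Just outside were Cenge3:660992 at 3.85, Cenge3:659595 at 3.83, Cenge3:697071 at 3.79, Cenge3:686850 at 3.62 and Cenge3:600290 at 3.59. The log2 fold changes of these 5 genes just outside ran from 3.06 to 3.57, inside or just under the range of the set.

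**Figure D3:**
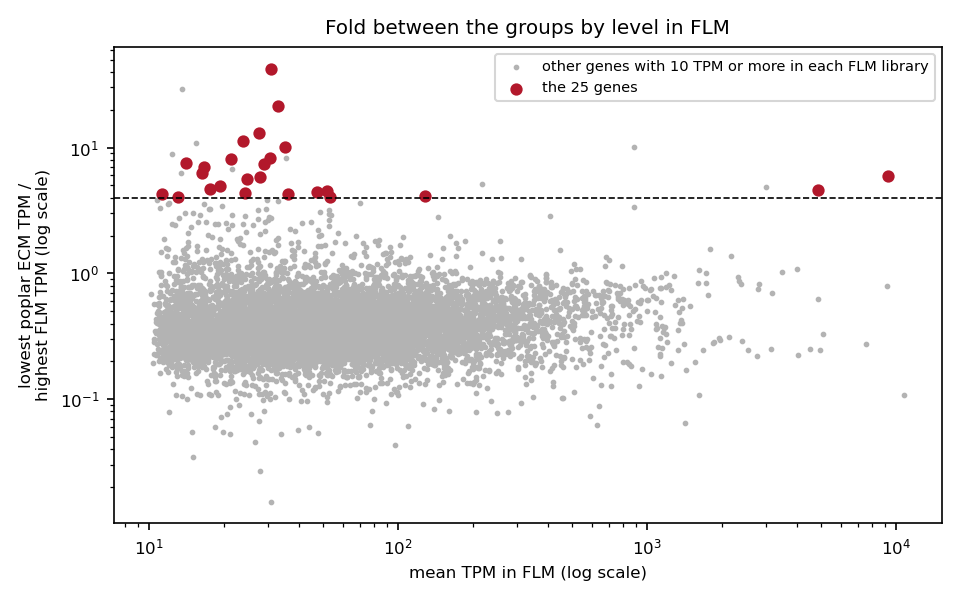
Ratio of the lowest poplar ECM TPM to the highest FLM TPM (log scale) against the mean TPM in FLM (log scale) for genes with 10 TPM or more in each FLM library, with the 25 genes of the set in red, the other 9508 in grey and the limit of 4 as a dashed line. The 23 annotated genes lie at mean FLM levels of 11.3 to 129 TPM, Cenge3:599435 and Cenge3:691655 at the far right, and the grey points above the line are the 10 genes that were left out.

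The rule fixed that every poplar ECM library stood above FLM, so the folds in single libraries describe their size only. Over the FLM mean in normalized counts, the 25 genes were 10.001 to 168 times higher in poplar ECM replicate 1 (median 19.8), 8.64 to 197 times in replicate 2 (median 19.7) and 6.24 to 74.8 times in replicate 3 (median 13.7). With the sequencer as a term in the fit the log2 fold changes ran from 3.32 to 7.39. Only poplar ECM replicate 1 shares its sequencer with FLM, so that fit sets this 1 library against FLM and repeats its folds. The part of the sequencer in the differences was not tested.

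Leaving out 1 library showed which of them limited the set. The rule took 35 genes without poplar ECM replicate 1, 27 without replicate 2 and 33 without replicate 3, against 32, 25 and 30 genes without FLM replicates 1, 2 and 3. By construction the 25 genes are in each of these selections. Poplar ECM replicates 1 and 3 thus kept out the most genes (10 and 8), and FLM replicate 2 kept out none. These counts are no check of the set, since the other libraries and the same FLM values chose the genes.

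How widely the genes of the set spread between libraries of a group, beside the comparison genes, depended on the scale and was not tested. In TPM the highest poplar ECM library was 1.94 times the lowest at the median of the 25, against 1.90 at the median of the comparison genes. In normalized counts the highest poplar ECM library was 1.67 times the lowest at the median of the 25, against 1.43 at the median of the 9508 comparison genes. In FLM the medians in normalized counts were 1.36 for the set and 1.20 for the comparison genes. The widest spreads in poplar ECM were those of Cenge3:650840 (5.78 times), Cenge3:599435 (5.52) and Cenge3:467384 (4.50), and the widest in FLM those of Cenge3:599435 (5.50) and Cenge3:691655 (4.26). FLM replicate 3 was the lowest FLM library for 15 of the 25 genes (60.0%) and for 38.9% of the comparison genes.

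The spread in poplar ECM went along with gene length. In normalized counts poplar ECM replicate 3 was the lowest poplar ECM library for 14 genes with a median length of 830.5 bp, and replicate 1 or 2 was the lowest for 11 genes with a median length of 1526 bp and none under 1219 bp. The log2 ratio of replicate 3 to the mean of replicates 1 and 2 had a Spearman correlation of 0.85 with gene length across the 25 genes and of 0.51 across the 9508 comparison genes. The genes share their libraries and are not independent, so these are descriptions. Among the 4 genes of 750 to 1000 bp the median of that log2 ratio was -1.14, against -0.39 in comparison genes of that length. Among the 4 genes of 2000 to 3000 bp it was 0.42, against 0.22 in comparison genes. Replicate 3 was thus low mainly in the shorter genes of the set, while the long genes went both ways, with Cenge3:597726 (2223 bp) at -0.28. At the ends stood Cenge3:650840 (889 bp) at -2.27 and Cenge3:605087 (2636 bp) at 0.81. Replicate 3 was also the poplar ECM library with the fewest counts, and whether RNA quality or library preparation differed was not tested.

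**Figure D4:**
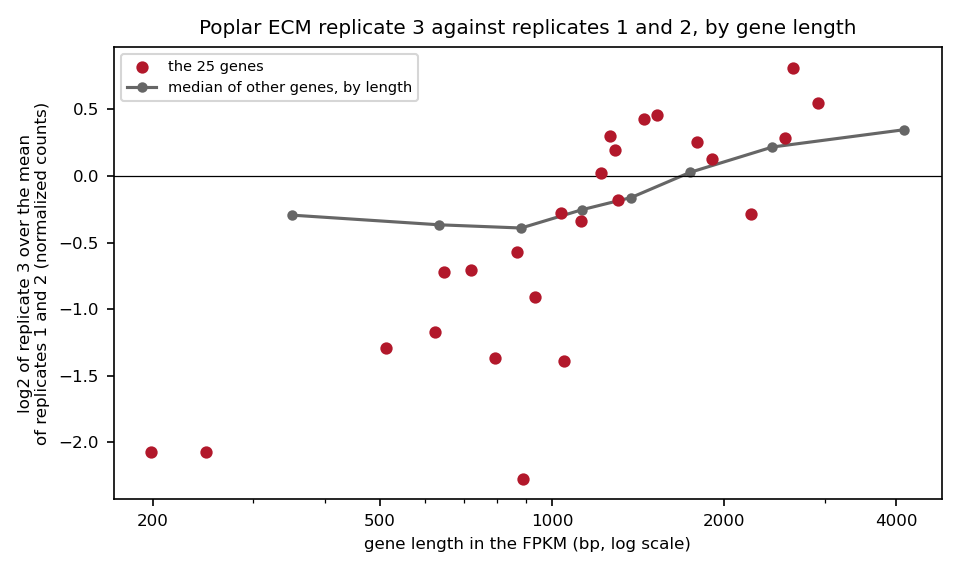
Log2 ratio of poplar ECM replicate 3 to the mean of poplar ECM replicates 1 and 2 in normalized counts against gene length (bp, log scale), with the 25 genes as red points and the median of the comparison genes in bins of length as a grey line. The red points tend to rise with length, from -2.07 in the shortest gene to 0.81 in Cenge3:605087, with the lowest at -2.27 in Cenge3:650840. Over a narrower range, the grey line falls from -0.29 up to 500 bp to -0.39 at 750 to 1000 bp. It then climbs to 0.35 in genes over 3000 bp.

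The genes of the set were shorter than the comparison genes, with a median length of 1125 bp (199 to 2919 bp) against 1587 bp. Shorter genes also had higher log2 fold changes in general, with a Spearman correlation of -0.32 between the 2 across the set and of -0.26 across the comparison genes. This correlation was weak in both.

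The 23 annotated genes were spread over the genome. They lay on 18 scaffolds, and the only direct neighbours among them were Cenge3:678704 (1777657 to 1779106) and Cenge3:662564 (1779319 to 1780443) on scaffold 30, with 212 bp between them. Coordinates are those of the RefSeq annotation of assembly version 2.0 and scaffolds were counted from the order of its genes. Of the 23 genes 10 (43.5%) lay in gene-sparse regions, in which a gap to a neighbouring gene is longer than the limit that the study set, against 22.6% of the comparison genes and 32.9% of all 14695 annotated genes. The longest gaps were next to Cenge3:215466 with 129974 bp on its right and Cenge3:605087 with 109951 bp on its left.

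Most neighbours were not called. Of the direct neighbours outside the set 39 were tested, and 6 of these (15.4%) were called higher and 1 (2.56%) lower in poplar ECM by edgeR, against 9.94% and 3.28% of all genes tested. Of the 23 genes 6 (26.1%) had at least 1 direct neighbour called higher, against 16.2% of all genes tested and placed. The 39 tested neighbours outside the set had a median log2 fold change of 0.18, against 0.01 over all genes tested. Cenge3:676136, with the largest change of the 23, had no called gene within 3 genes on either side.

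Cenge3:678704 and Cenge3:662564 had similar levels. Cenge3:678704 stood at 214, 269 and 526 TPM in poplar ECM replicates 1, 2 and 3, against 48.7, 47.2 and 45.7 TPM in FLM. Cenge3:662564 stood at 235, 294 and 339 TPM in poplar ECM, against 57.9, 51.5 and 49.9 TPM in FLM. Both had even FLM libraries and their highest TPM in poplar ECM replicate 3. Their log2 fold changes were 3.55 (SE 0.21) and 3.26 (SE 0.19). The genes on their outer sides, Cenge3:173150 and Cenge3:662565, were also called higher (log2 fold change 1.90 for the first and 1.48 for the second) and made a run of 4. The groups of both outer genes overlapped in TPM. Cenge3:173150 had 1.83 to 2.84 TPM in poplar ECM against 0.57 to 2.04 TPM in FLM, far below the pair. Cenge3:662565 had 13.57, 18.69 and 7.26 TPM in poplar ECM replicates 1, 2 and 3, against 8.82, 8.45 and 9.8 TPM in FLM.

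Cenge3:680303 on scaffold 47 (221282 to 222149) closed a run of 7 genes in a row that were called higher in poplar ECM. It had 179.7, 281 and 250.2 TPM in poplar ECM replicates 1, 2 and 3, against 32.3, 42.1 and 34.4 TPM in FLM, with no overlap and a log2 fold change of 3.53 (SE 0.24). The 6 genes on its left were Cenge3:699075, Cenge3:579356, Cenge3:699077, Cenge3:617742, Cenge3:617747 and Cenge3:617748, and their log2 fold changes, in this order, were 2.11, 1.68, 3.82, 3.52, 4.002 and 4.29. All 6 had less than 10 TPM in each FLM library, below the floor of the rule. Cenge3:617747 was the highest of them with 42.9 to 73.6 TPM in poplar ECM against 3.96 to 8.74 TPM in FLM. Cenge3:699075 had no more than 1.35 TPM in any library. Cenge3:579356 had 2.86 to 6.36 TPM in poplar ECM against 2.26 to 3.3 TPM in FLM, so its groups overlapped in TPM. Both of these genes also missed the fold of 4. To the right of Cenge3:680303 followed a gap of 76797 bp. Only 2 runs of 7 or more such genes were found in the annotation, the longest of 8 genes, out of 170 runs of 2 or more, of which 5 held a gene of the set.

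In the other 3 runs the gene of the set had 1 neighbour called higher. Cenge3:600293 lay 217 bp from Cenge3:600290, whose ratio of 3.59 left it just outside the set and whose log2 fold change was 3.06. Cenge3:653228 and Cenge3:541280 (log2 fold change 1.30) were 2465 bp apart, and Cenge3:698148 and Cenge3:194182 (1.23) were 4305 bp apart. Cenge3:541280 had 10.3 to 20.96 TPM in poplar ECM against 11.12 to 12.73 TPM in FLM. Cenge3:194182 had 32.77 to 41.15 TPM in poplar ECM against 18.32 to 35.45 TPM in FLM. For both the groups overlapped in TPM. Cenge3:653228 overlaps its other neighbour, Cenge3:653227, by 378 bp, so reads there could fall to either gene where the strand did not separate them. Cenge3:531779 was separated by 1 gene from Cenge3:650216, which had 79.9, 74.5 and 147 TPM in poplar ECM against 1.10, 1.85 and 1.30 TPM in FLM, a larger difference (log2 fold change 6.89) from a level far below the floor. The gene between them, Cenge3:672389, had a log2 fold change of -0.17 and was not called.

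**Figure D5:**
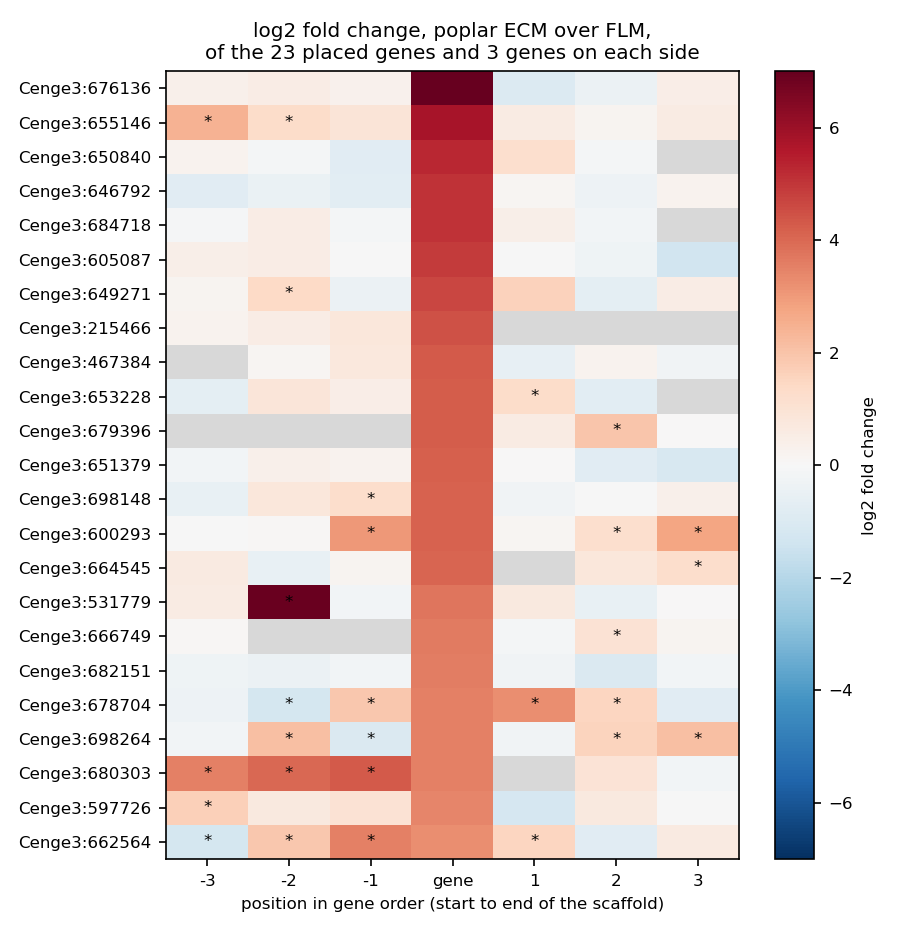
Log2 fold change (poplar ECM over FLM, colour scale) of the 23 annotated genes in the centre column and of the 3 genes on each side in the order of the annotation, with grey for genes not tested or beyond the scaffold end and an asterisk for neighbours called higher or lower. Apart from the run of high genes left of Cenge3:680303, the pair on scaffold 30 and the neighbours of Cenge3:600293 and Cenge3:531779, most side columns are pale.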

How the data were processed

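RNA-Seq libraries of poplar ECM and FLM (3 each, day 60) were compared. Pine ECM and other tissues were not analysed here. Reads were cleaned by the authors and, as the paper states, aligned to the fungal transcripts of genome version 2.0. Only primary alignments to the reverse strand entered the counts. The submitters' processing notes name HISAT 0.1.4 and featureCounts. The deposited counts are raw whole numbers per gene. The deposited FPKM and TPM were made by the authors from those counts, and TPM rests on gene span here, since the lengths implied by FPKM lie within 1% of the annotated span for 99.976% of 12516 genes. A gene span is not a transcript length, and whether the alignment was to transcripts or to the genome was not tested.

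The genes were chosen on deposited TPM. The test on the counts was run with edgeR 4.0.16 under R 4.3.3 (TMM, quasi-likelihood test, at least 10 counts in at least 3 libraries, biological coefficient of variation 0.201), and each SE was derived from the quasi-likelihood F as the absolute log2 fold change divided by its square root. On simulated counts the same code recovered 199 of 200 changed genes with 2 false calls among 12720. Those counts had the same spread for all genes and no effect of gene length or sequencer. They check that the code runs as meant and not how reliable the calls are in these data. DESeq2 1.42.0 was an alternative. Summaries used Python 3.11.15, pandas 2.3.3, SciPy 1.17.1 and matplotlib 3.10.9. The genes and lists were chosen with earlier results of these data known. Genes were to be named when among the 10 largest ratios, the 10 highest means in poplar ECM, the 5 widest spreads, neighbours within the set, or the 5 on either side of the limit of 4. The other genes of the set are named because the set is small, and other neighbours and Cenge3:93593 were chosen after their values were seen. Lists of genes by product name could not be formed, since the annotation used gives no product names. Sequences were not used here. Scaffolds were rebuilt from the gene order of the annotation. Their numbers were checked up to scaffold 83, and 2 genes of the set (Cenge3:649271 and Cenge3:597726) lie beyond it.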

Additional observations from a re-analysis of the deposited data

How the results depend on the processing

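The size of the set followed its limits. Against 25 genes, the rule took 66 on TMM-normalized counts, 36 on FPKM, 42 at a fold of 3, 14 at a fold of 5, 41 at an FLM floor of 5 TPM and 12 at a floor of 20 TPM, and 25 to 35 with 1 library left out. All 25 were among the genes taken on normalized counts, and 19 of them among those taken on FPKM. A fold of 3, a floor of 5 TPM and leaving out a library each loosen the rule, so there all 25 stay in by construction. With settings chosen after seeing the data it took 68 genes on counts adjusted by gene length (all 25 included) and 45 on TPM rescaled without Cenge3:599435, Cenge3:691655 and Cenge3:93593 (the 23 annotated genes included). All 25 genes were called higher in every fit that tested them, and 23 in the fit without these 3 IDs, where 2 were not tested. The rule chose the genes on this contrast, so nothing is read from these calls. Over all genes, 1262 were called higher and 416 lower. These counts were 838 and 1217 on library totals, 541 and 61 with glmTreat, and 1037 to 1422 and 322 to 572 with 1 library left out. Genes called lower were 199 with the sequencer as a term and 810 with library sizes without the 3 IDs. With the replicate block 1245 were called higher and 432 lower. Deviations from the group mean had correlations of 0.04, 0.24 and 0.29 between libraries numbered 1, 2 and 3, against -0.30 to 0.12 between libraries of different number. The deviations within a group cancel out, so these correlations are tied to one another. The main fit did not pair the samples by number, and whether the numbers pair them was not tested. With 3 libraries a group and the sequencer unevenly spread, no cause of the differences was tested.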

Other observations

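On normalized counts the rule took 41 further genes that TPM left outside, all of them annotated. The most abundant of the 41 in poplar ECM was Cenge3:653628, with 5401, 5541 and 3467 TPM in poplar ECM replicates 1, 2 and 3, against 1023, 888 and 756 TPM in FLM. Replicate 3 was the lowest library in both groups, and the groups did not overlap. Its lowest poplar ECM library was 3.39 times its highest FLM library in TPM and 4.41 times in normalized counts, with a log2 fold change of 3.35. Cenge3:455656 had 524, 843 and 694 TPM in poplar ECM, against 94.5, 152 and 188 TPM in FLM, and a log2 fold change of 3.07. Cenge3:616369 had 201, 286 and 455 TPM in poplar ECM, against 63.3, 52.7 and 43.1 TPM in FLM, and a log2 fold change of 3.31. These genes were picked for their levels after the values were seen.

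Of the 9 listed secreted proteins that passed both limits and were left out, Cenge3:681187 had the highest level after Cenge3:93593. It had 9483, 14538 and 13624 TPM in poplar ECM, against 937, 765 and 948 TPM in FLM. The largest ratio was that of Cenge3:693798, with 461, 797 and 955 TPM in poplar ECM, against 15.7, 14.7 and 10.4 TPM in FLM, where the lowest poplar ECM library stood 29.4 times above the highest FLM library.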
